A study of Mus musculus with 6 samples.

Results

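The Notch receptors Notch1 to Notch4, their ligands Dll1, Dll4, Jag1 and Jag2, the target gene Hes1 and the Notch inhibitor Numb were examined in hematopoietic stem cells (HSCs) of serially transplanted mice. The rule takes genes by name, though it was set with earlier results of these data known: every non-control probe that the array files assign to one of these 10 genes was taken, which gave 12 of the 39429 probes and 21 spots. RNA came from LSK-SLAM cells, in which HSCs are enriched, sorted from marrow as lineage-negative, c-Kit+, Sca-1+, CD150+ and CD48- cells. Fetal liver cells of p190-B-/- embryos or of their WT littermates (CD45.2+, C57BL/6J background) had been transplanted with competitor marrow into lethally irradiated congenic CD45.1+ mice, and marrow of those mice had been moved to irradiated secondary recipients (2T). Both groups therefore share the fetal liver origin, the competitor cells, the irradiated host and the serial transplantation, and differ in the germline loss of p190-B in the donor cells. This GTPase-activating protein is encoded by Arhgap5. The study's array methods do not state a CD45.2 gate, so the share of donor cells in the RNA is not known. There were 3 arrays of each group, named 2T-WT and 2T-p190-B-/-, each hybridised in a single colour after amplification of the cDNA. The time after the second transplant and the number of mice behind an array are not given in the labels. The study describes 3 independent secondary recipients per group and 3 independent isolations, without tying single arrays to them. The p-values measure the spread between these arrays.

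Notch signalling passes between neighbouring cells. A Delta-like or Jagged ligand on one cell binds a Notch receptor on the next, the receptor is cut, and its intracellular part enters the nucleus, joins the DNA-binding protein RBPJ and a Mastermind coactivator, and turns on genes such as Hes1. Numb, an endocytic adaptor protein that can be handed unequally to daughter cells at division, lowers Notch activity in the cell that receives it. In blood formation the pathway is known above all for directing progenitors to the T cell lineage, while endothelial and stromal cells of the marrow are known to present its ligands to HSCs.

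Each probe is a single-stranded oligonucleotide of 60 bases, and its brightness reports only the stretch of transcript it can bind. For the probes on which the results turn, the sequence deposited with the arrays is shown, 5′ to 3′, because the probes of Notch1 and of Notch2 lie in different stretches of their transcripts and did not read alike. Coordinates follow the mm9 annotation that the array files carry, and exon and UTR boundaries were not used here. The first probe of Notch1 (A_55_P2171897) starts at base 5898 of the transcript and lies at chr2:26319440-26319499 on the minus strand, the first probe of Notch2 (A_55_P1982793) starts at base 7448 and lies at chr3:97951233-97951292 on the plus strand, and the probe of Numb (A_52_P26216) starts at base 1744 and lies at chr12:85136400-85136459 on the minus strand. These 3 are shown whole.
Notch1, first probe: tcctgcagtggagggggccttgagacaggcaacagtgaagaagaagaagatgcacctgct
Notch2, first probe: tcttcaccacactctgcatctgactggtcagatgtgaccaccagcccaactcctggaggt
Numb: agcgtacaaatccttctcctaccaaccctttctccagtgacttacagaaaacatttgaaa
Of the second probe of Notch1 (A_55_P2047168, base 8221, chr2:26314630-26314689 on the minus strand), the second probe of Notch2 (A_52_P289213, base 10129, chr3:97953914-97953973 on the plus strand), and the probes of Dll4 (A_51_P384402, chr2:119160779-119160838 on the plus strand) and Dll1 (A_51_P306017, chr17:15504623-15504682 on the minus strand), the first 30 bases are shown.
Notch1, second probe: ttgcttctttccaaaatcgaaaagaaagaa
Notch2, second probe: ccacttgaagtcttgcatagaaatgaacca
Dll4: tttgcccagactccatcctcacagctgggc
Dll1: gattactatgagccagtctttccttgaact
The probe of Notch3 (A_51_P220162) lies at chr17:32257848-32257907 on the minus strand, and that of Notch4 (A_51_P195875) lies at chr17:34725120-34725179 on the plus strand. The probe of Jag1 (A_52_P634090) lies at chr2:136907433-136907492 on the minus strand, that of Jag2 (A_51_P451338) lies at chr12:114146887-114146946 on the minus strand, and that of Hes1 (A_55_P2046245) lies at chr16:30067820-30067879 on the plus strand.

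The values below are the log2 of the processed signal, a background-corrected brightness, less the log2 of the 75th percentile of the same array, so that 0 is the level of a bright spot of that array and 1 unit is a doubling. A probe was tested when it was well above background, by the flag of the scanner software, on at least 3 of the 6 arrays. This left 25160 probes of the array, 7 of the 12 member probes and 6 of the 10 genes: Notch1 with both probes, Notch2 with its first probe, Notch4, Dll4, Jag2 and Numb. Differences are 2T-p190-B-/- minus 2T-WT, and the median difference of all tested probes was -0.33, below 0. Before this scaling every 2T-p190-B-/- array was brighter (75th percentile 252 to 385 intensity units) than every 2T-WT array (53.9 to 227). Well above background were 48.1% to 72.7% of the spots. The arrays lay on 3 slides, of which slide 2 held replicates 2 and 3 of 2T-WT with replicates 1 and 2 of 2T-p190-B-/-, slide 1 held 2T-WT replicate 1 alone and slide 3 held 2T-p190-B-/- replicate 3 alone, so a difference within slide 2 is given beside the difference over all arrays for each gene described. The single probe of Arhgap5 exceeded background on 0 of 3 arrays of 2T-WT and on 1 of 3 of 2T-p190-B-/-, and it checks nothing about the labels. Of the genes behind the sort, Slamf1 (CD150) was above background on 0 of the 6 arrays, Kit on 5, and Ly6a (Sca-1) and Cd48 on 6.

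No member probe passed the test of 2T-p190-B-/- against 2T-WT. With limma and Benjamini-Hochberg adjustment over all tested probes, 0 of 7 member probes were called at an adjusted p under 0.05, and over the whole array the share called was 0%. At an unadjusted limma p under 0.05 the count was also 0 of 7, where 6.57% of all tested probes lay, and it was 1 without 2T-WT replicate 2, the first probe of Notch1. In 0 of 7 did the 3 arrays of one group all lie on one side of the 3 of the other, which 15.9% of all tested probes did. The mean was lower in 2T-p190-B-/- for 3 of 7 member probes, both of Notch1 and the first of Notch2, against 60.8% of all tested probes, and the median of the 7 differences was 0.11. The methods' t-test likewise gave 0 member probes with a p of 0.05 or less. Within slide 2 the mean was lower for 6 of 7, all but Dll4, with adjusted p-values of limma from 0.62 to 0.91. With the normexp background correction it was also 6 of 7, and 2, the second probe of Notch1 (-1.27) and Dll4 (1.46), had an unadjusted p under 0.05, as had 3608 of all 25160 probes under that correction, each of the 2 with an adjusted p of limma of 0.34. Both within slide 2 and with normexp, the median difference of all tested probes was -0.47, lower than the -0.33 given above.

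**Figure D1:**
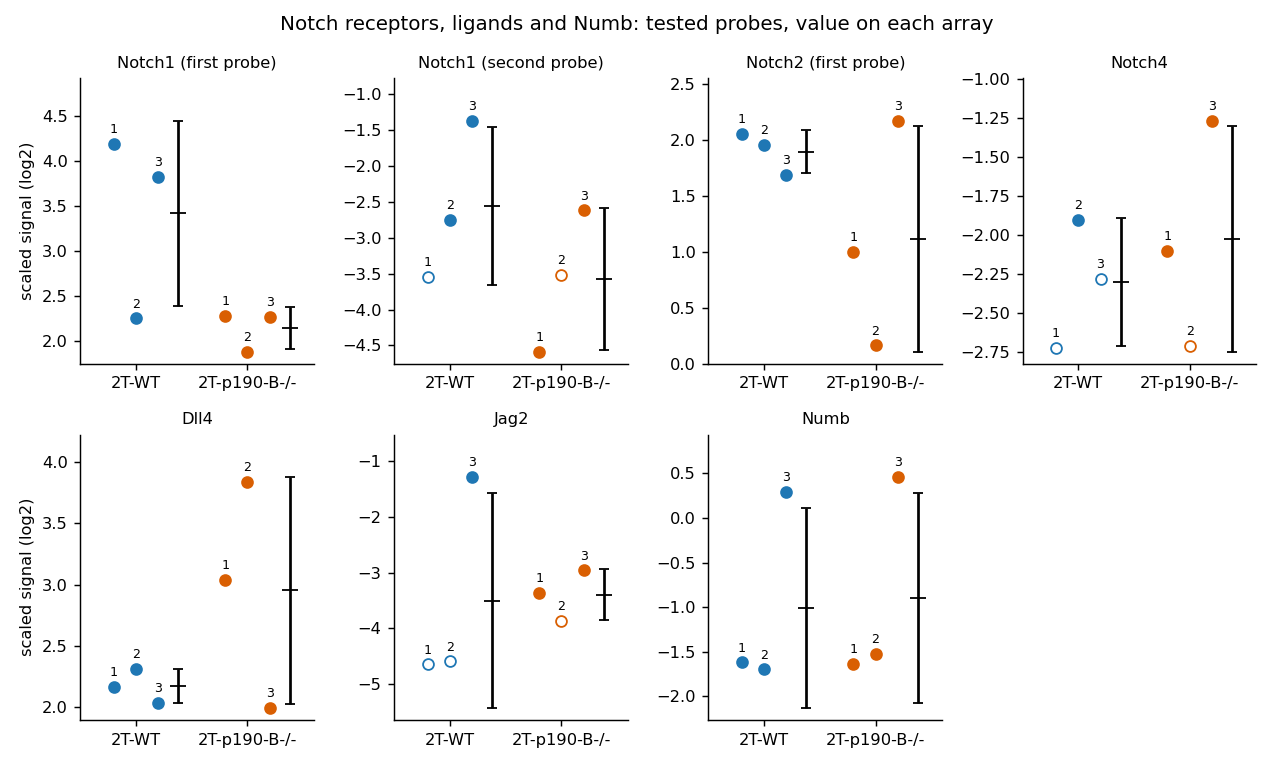
Scaled log2 signal (vertical axis) of the 7 tested probes on each array, 2T-WT in blue and 2T-p190-B-/- in orange, with the replicate number above each point, open points where the probe was not well above background, and the mean ± SD of 3 arrays in black. In every panel the points of the groups overlap. The vertical scales differ between panels.

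Among the receptors, Notch1, which is required for T cell commitment, had the lowest difference of the tested member probes. Its first probe read 4.19, 2.25 and 3.82 in the 2T-WT replicates against 2.28, 1.88 and 2.27 in the 2T-p190-B-/- replicates, each in the order 1, 2 and 3, which holds for all values below. The 3 2T-p190-B-/- arrays lay close together and level with 2T-WT replicate 2, whereas 2T-WT replicates 1 and 3 stood above them. The means were 3.42 ± 1.03 and 2.14 ± 0.23 (SD, n = 3 each), which differed by -1.27 (SE 0.76, 95% interval -3.02 to 0.47), or 41.3% of the 2T-WT level. The adjusted p of limma was 0.64. Within slide 2 the difference was -0.95 (SE 1.00), and without any 1 array it ran from -1.86 to -0.89. With normexp it was -0.35.

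The second probe of Notch1 had the same direction from a dim signal. It read -3.54, -2.75 and -1.37 in the 2T-WT replicates against -4.59, -3.51 and -2.62 in the 2T-p190-B-/- replicates, and was well above background on 2 arrays of each group. Its difference was -1.02 (SE 0.87, adjusted p of limma 0.70), and the lowest and highest values came from different arrays than those of the first probe. Within slide 2 it was -1.99 (SE 1.02), and without 2T-WT replicate 3 it was -0.43. Over the 6 arrays the probes of Notch1 had a Pearson r of 0.35 with each other.

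Notch2, the receptor best known in blood for marginal zone B cells, was given by its first probe. That probe read 2.05, 1.95 and 1.69 in the 2T-WT replicates, a narrow range, against 1.00, 0.16 and 2.18 in the 2T-p190-B-/- replicates. Replicates 1 and 2 of 2T-p190-B-/- lay below every 2T-WT array, and replicate 3, alone on its slide, lay above them all. The means were 1.90 ± 0.19 and 1.11 ± 1.01 (SD, n = 3 each), and the difference was -0.78 (SE 0.76, 95% interval -2.52 to 0.95, adjusted p of limma 0.73), or 58.1% of the 2T-WT level. It was -1.24 (SE 0.93) within slide 2, -1.32 without 2T-p190-B-/- replicate 3 and -0.31 without replicate 2 of the same group, and -0.13 with normexp. The second probe of Notch2 was well above background on 2T-WT replicate 2 alone, at -2.02, and was not tested. On the other arrays it was not well above background, at -4.75 and -4.47 for 2T-WT replicates 1 and 3, and at -6.17, -5.06 and -6.03 for 2T-p190-B-/-, so neither group has a measured mean.

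Notch4, a receptor known mainly from endothelium, read -2.72, -1.90 and -2.28 in the 2T-WT replicates against -2.10, -2.71 and -1.26 in the 2T-p190-B-/- replicates. The groups overlapped, and the difference was 0.28 (SE 0.71, adjusted p of limma 0.91). It turned to -0.31 within slide 2 and to -0.67 with normexp, and the probe was above background on only 1 2T-WT and 2 2T-p190-B-/- arrays. Notch3, a receptor known from vascular smooth muscle, was above background on 1 array of each group, at -1.72 on 2T-WT replicate 2 and at -0.79 on 2T-p190-B-/- replicate 1. It was not tested. Its other 4 arrays read from -4.96 to -3.23.

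Dll4, the Delta-like ligand that supports T cell fate in the thymus and is also made by endothelium, had the highest difference of the tested member probes. It read 2.16, 2.31 and 2.03 in the 2T-WT replicates against 3.04, 3.84 and 1.99 in the 2T-p190-B-/- replicates, and was above background on all 6. Replicates 1 and 2 of 2T-p190-B-/- lay above every 2T-WT array, while replicate 3 lay just below the lowest of them. The means were 2.17 ± 0.14 and 2.95 ± 0.93 (SD, n = 3 each), and the difference was 0.78 (SE 0.74, 95% interval -0.91 to 2.48, adjusted p of limma 0.72), a 1.72-fold higher mean. It was 1.26 (SE 0.93) within slide 2, 1.27 without 2T-p190-B-/- replicate 3 and 0.34 without replicate 2 of the same group, and 1.46 with normexp. Of the 7 genes of the endothelial marker list 5 were tested. Of these 4 were lower in 2T-p190-B-/-, as were 60.8% of all tested probes. The list summed to 14.2 to 30.6 times the 75th percentile on the 2T-WT arrays and 12.02 to 31.5 times on the 2T-p190-B-/- arrays. Of its genes Kdr, Tek and Vwf were above background on all 6 arrays, Pecam1 on 2 of each group, Cdh5 on 1 of each group and Sox17 on none. Emcn, above background on 2 2T-WT arrays and 1 2T-p190-B-/- array, had a difference of -2.39 as measured (adjusted p of limma 0.64). Its groups did not overlap as measured, as for 15.9% of all tested probes. Most of its 2T-p190-B-/- values were not above background, so that neither this size nor the lack of overlap is established. The part of endothelial cells in the Dll4 values was not tested. In bulk samples, fewer cells of a type and less RNA per cell cannot be told apart.

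Dll4 and the first probe of Notch2 varied in opposite directions across the arrays. Over the 6 arrays Pearson's r was -0.97 (exact permutation p = 0.031, adjusted over 21 pairs of member probes 0.62) and Spearman's rank correlation was -0.83 (exact permutation p = 0.058, adjusted 0.75). Without 2T-p190-B-/- replicates 1 and 2, the arrays farthest from the median of Dll4, r was -0.014, so the relation rests on those arrays, which are the 2T-p190-B-/- arrays of slide 2.

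The other ligands were dim. Jag2, a Jagged ligand, read -4.65, -4.59 and -1.28 in the 2T-WT replicates against -3.36, -3.86 and -2.96 in the 2T-p190-B-/- replicates. It was above background on 2T-WT replicate 3 and on 2T-p190-B-/- replicates 1 and 3. The difference of 0.11 (SE 1.02, adjusted p of limma 0.98) turned to -0.68 within slide 2 and to -1.11 with normexp, and was 1.23 without 2T-WT replicate 3. Jag1, a Jagged ligand also made by stromal and endothelial cells, was above background on 0 of the 6 arrays, and on each of them its signal was a substitute that the software enters for a spot at background.

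Dll1, another Delta-like ligand, is printed on the array at 10 places, so its detection can be read from repeated spots. On 2T-p190-B-/- replicate 1 all 10 spots were well above background, at 28.0 to 35.0 intensity units, and on replicate 3 of that group 9 of 10 were, at 18.4 to 34.4. On replicate 2 it was 0 of 10, at 9.06 to 12.5. In 2T-WT, 2 of 9 kept spots were well above background on replicate 1, at 16.3 to 29.8 units, 0 of 10 on replicate 2 and 0 of 9 on replicate 3. Detection by most spots was thus seen on 2 of 3 2T-p190-B-/- arrays and 0 of 3 2T-WT arrays, with the 2T-p190-B-/- arrays the brighter ones before scaling. After scaling, Dll1 read -2.46, -5.21 and -4.10 in 2T-WT and -3.62, -4.95 and -3.13 in 2T-p190-B-/-, overlapping ranges, and it was not tested.

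**Figure D2:**
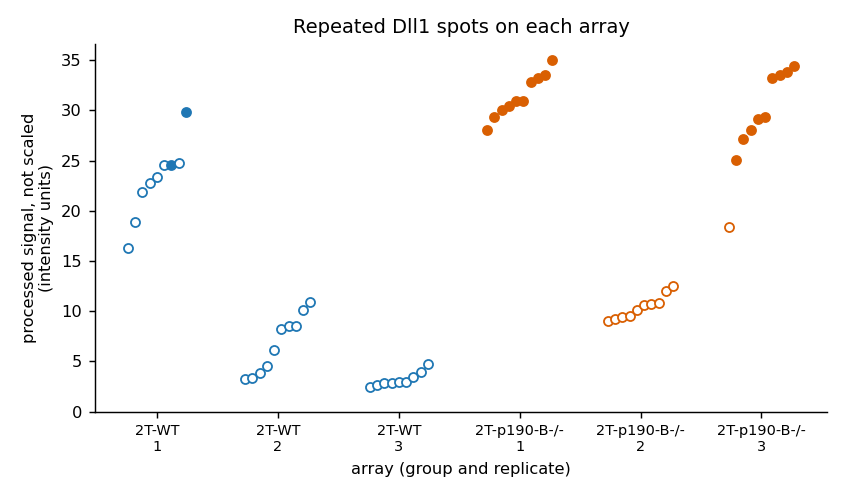
Processed signal before scaling (vertical axis, intensity units) of each kept Dll1 spot, by array and ordered by signal within the array, 2T-WT in blue and 2T-p190-B-/- in orange. Filled points were well above background, which holds for 10 spots on 2T-p190-B-/- replicate 1, 9 on replicate 3 and 2 on 2T-WT replicate 1.

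Numb did not differ beyond the spread of the arrays. Its probe read -1.62, -1.70 and 0.29 in the 2T-WT replicates against -1.63, -1.52 and 0.46 in the 2T-p190-B-/- replicates, and was above background on all 6. In each group replicate 3 stood apart above the other replicates, which lay between -1.70 and -1.52 in both groups. The means were -1.01 ± 1.12 and -0.90 ± 1.18 (SD, n = 3 each). The difference was 0.11 (SE 0.91, 95% interval -1.99 to 2.21, adjusted p of limma 0.98), an interval from 0.252-fold to 4.63-fold, so a change of either sign within it was not detectable with these arrays. Within slide 2, where 2T-WT replicate 3 but not 2T-p190-B-/- replicate 3 lies, the difference was -0.87 (SE 1.06), with normexp it was -0.30, and without 2T-WT replicate 3 it was 0.76. Before scaling Numb was the 1 tested member probe whose groups did not overlap, at 40.5, 70.2 and 65.9 intensity units in 2T-WT and 124, 112 and 348 in 2T-p190-B-/-. Before scaling, 20.9% of all tested probes did not overlap, and 20.4% lay higher in 2T-p190-B-/- without overlap.

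Hes1, the transcriptional repressor that is the standard readout of Notch activity, was not above background on any of the 6 arrays. On every array its spot carried the software's substitute value, so its scaled values of -6.22 to -4.45 in 2T-WT and -7.06 to -5.08 in 2T-p190-B-/- are only a bound on each array. Hes1 was read by a single probe. Of the 15 other target genes in the pathway list described below, 6 were above background on all 6 arrays and 2 on none.

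**Figure D3:**
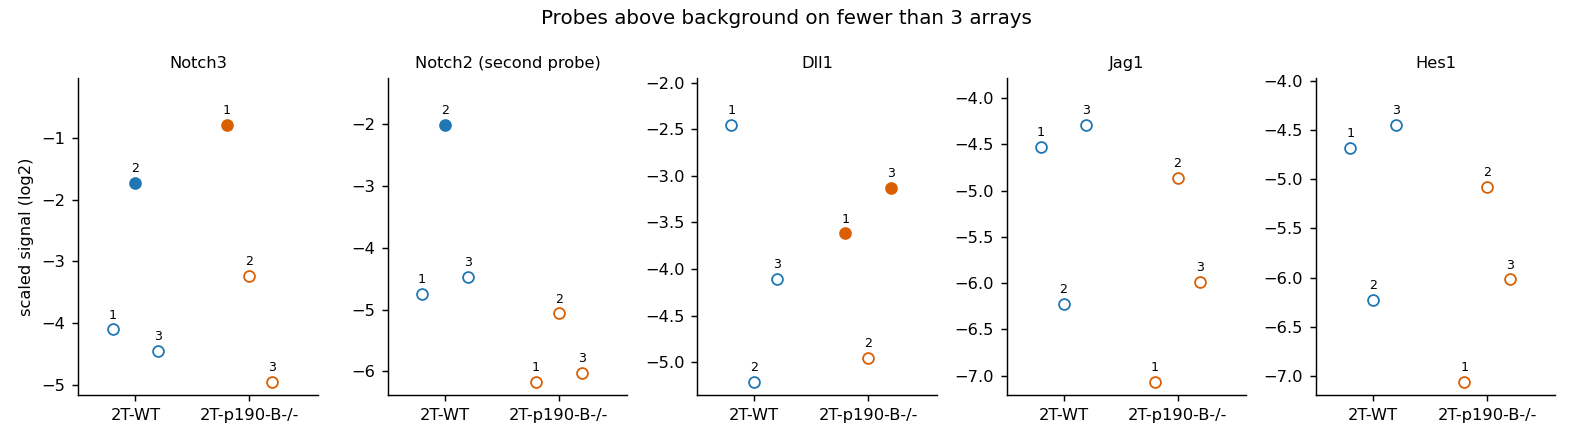
Scaled log2 signal (vertical axis) of the 5 member probes above background on fewer than 3 arrays, 2T-WT in blue and 2T-p190-B-/- in orange, with the replicate number above each point. Filled points were well above background, 2 for Notch3, 1 for the second probe of Notch2, 2 for Dll1 and 0 for Jag1 and Hes1. The vertical scales differ between panels.

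**Figure D4:**
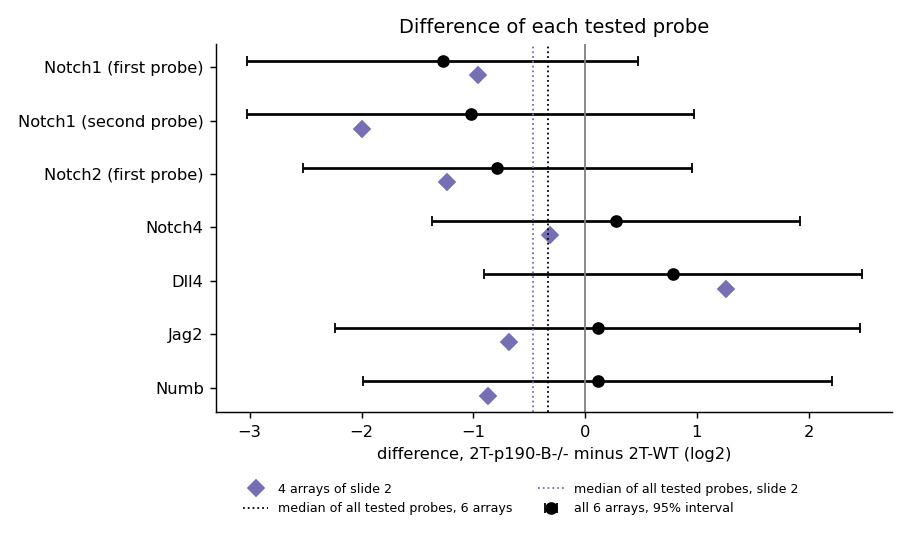
Difference between the groups (horizontal axis, log2, 2T-p190-B-/- minus 2T-WT) for the 7 tested probes, with circles and 95% intervals of limma over all 6 arrays and diamonds for the 4 arrays of slide 2. Every interval spans 0, and within slide 2 every diamond except that of Dll4 lies below 0. Dotted lines mark the median of all tested probes, -0.33 over 6 arrays and -0.47 within slide 2.

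The rest of the pathway was read from a list of 58 genes outside the members, each by its probe with the highest mean signal, of which 57 were on the array and 41 were tested. Of these, 0 passed limma at an adjusted p under 0.05, and 3 had an unadjusted p under 0.05, beside 6.57% of all tested probes. The groups did not overlap for 8 of 41, beside 15.9% of all. The difference was below 0 for 26 and above 0 for 15, with a median of -0.30 against -0.33 over all tested probes. All 3 other ligands tested, all 3 glycosylation enzymes and 6 of 11 target genes had a lower mean in 2T-p190-B-/-, and 2 of 5 genes of receptor cleavage did. For the endocytic and ubiquitin ligase genes it was 6 of 10, and for the nuclear complex with its corepressors 6 of 9.

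The genes with an unadjusted p under 0.05 were Hes7, Spen and Ccnd1, all lower in 2T-p190-B-/-. Hes7, a repressor of the Hes family, read 3.38, 4.98 and 4.64 in the 2T-WT replicates against 1.85, 1.89 and 2.07 in the 2T-p190-B-/- replicates, so that the groups stood apart with little spread in the second. Its difference was -2.40 (SE 0.72, adjusted p of limma 0.64), and -2.94 within slide 2. Spen, a corepressor that binds RBPJ, read -1.66, -0.0048 and -0.083 against -3.05, -3.57 and -2.23, a difference of -2.37 (SE 0.78, adjusted p of limma 0.64) that was -3.27 within slide 2. It was above background on 3 2T-WT and 2 2T-p190-B-/- arrays. On 2T-p190-B-/- replicate 2 its value lay below the lowest signal well above background there, -2.86, so the size of both differences is not established. Ccnd1, cyclin D1, read -2.70, -2.65 and -1.20 against -4.40, -4.50 and -3.37, a difference of -1.91 (SE 0.76, adjusted p of limma 0.64) that was -2.52 within slide 2, with 2 arrays of each group above background.

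Other genes whose groups did not overlap included the DNA-binding factor of the pathway. Rbpj read 0.14, 0.25 and 1.51 in the 2T-WT replicates against -0.72, -0.51 and -0.28 in the 2T-p190-B-/- replicates, a difference of -1.13 (SE 0.71, adjusted p of limma 0.64) that was -1.49 within slide 2. Dlk2, a Delta-like protein without the usual receptor-binding domain, differed by -1.50 (-2.18 within slide 2), and the Deltex-family ubiquitin ligase Dtx3l by -1.18 (-1.33 within slide 2). Dtx2, also of the Deltex family, was the 1 gene of the 8 with the higher mean in 2T-p190-B-/-, by 1.22 as measured (0.71 within slide 2). It was above background on 1 2T-WT array and all 3 2T-p190-B-/- arrays, and the lowest signal well above background on 2T-WT replicate 3, -2.26, lay above each of its 2T-p190-B-/- values, so that neither this size nor the lack of overlap is established. Cir1, a corepressor that interacts with RBPJ, differed by -0.9997 (-1.16 within slide 2). The adjusted p of limma was 0.64 for each of these 4 genes.

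**Figure D5:**
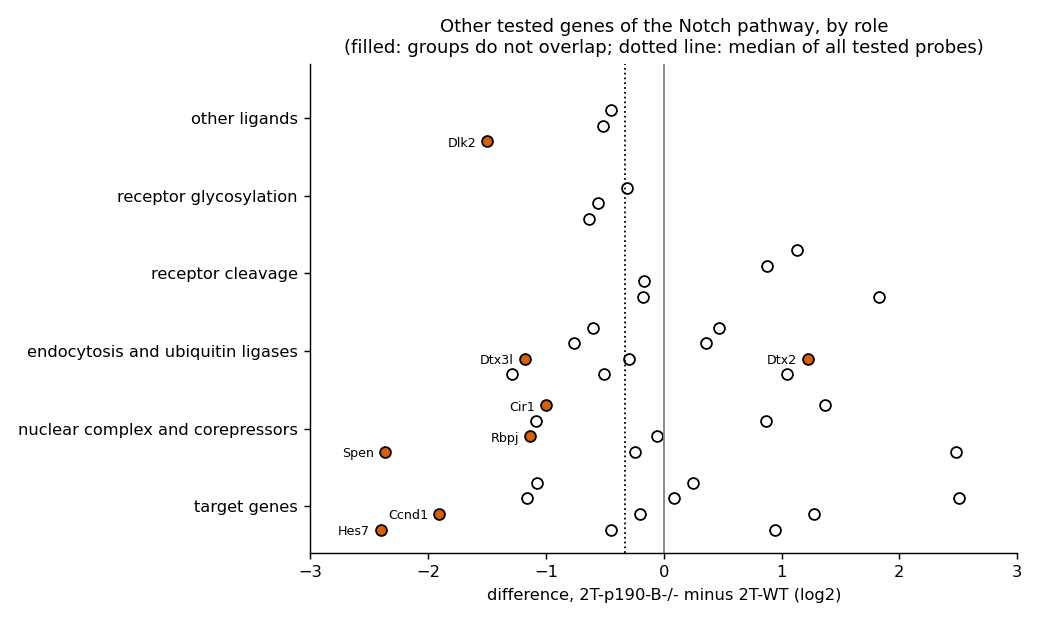
Difference between the groups (horizontal axis, log2, 2T-p190-B-/- minus 2T-WT) for the 41 other tested genes of the Notch pathway, in rows by role, with vertical position within a row only for legibility. Filled points are the 8 genes whose groups do not overlap, and the dotted line is the median of all tested probes at -0.33.

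Markers of lymphocytes were read because Notch receptors are also expressed there, although the lineage antibodies of the study's sort (B220, CD3 and CD5 among them) are meant to remove such cells. Of the T lymphocyte list 6 of 7 tested genes were lower in 2T-p190-B-/-, as were 60.8% of all tested probes. Its genes summed to 48.1 to 143 times the 75th percentile in 2T-WT and 34.6 to 56.6 times in 2T-p190-B-/-. The 143 was on 2T-WT replicate 3, where the probe of Cd4 read 7.06 and made up most of the sum. Other genes of the list did not follow Cd4 there. Lck (1.21), Cd3e (1.48), Thy1 (1.49) and, at a dim -4.24, Cd8a had their lowest 2T-WT value on that array. Only Rag1 (-1.21), like Cd4, had its highest 2T-WT value on it. Of the list, Cd3e, Cd3g, Lck, Cd4 and Thy1 were above background on all 6 arrays, and Cd3d on 0 2T-WT and 2 2T-p190-B-/- arrays. Rag1 was above background on 3 2T-WT and 2 2T-p190-B-/- arrays, and Cd8a on 2 of each group. Cd8a was the 1 tested gene of the list with a higher mean in 2T-p190-B-/-, by 1.12 (adjusted p of limma 0.84). It read 2.38 on 2T-p190-B-/- replicate 3, above every other array. The B lymphocyte list, with 5 of 6 tested genes lower, summed to 4.86 to 721 times in 2T-WT and 4.21 to 6.03 times in 2T-p190-B-/-. The 721 was on 2T-WT replicate 3, where the probe of Cd79a read 9.47 and made up nearly all of the sum. Most, but not all, of the other tested genes of the list also had their highest 2T-WT value on that array. That array was the highest of 2T-WT for Numb, Jag2 and the second probe of Notch1, the lowest for Dll4 and the first probe of Notch2, and neither for Notch4 and the first probe of Notch1. The part of these cells in the values of the Notch genes was not tested.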

How the data were processed

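LSK-SLAM RNA was measured on 6 single-colour Agilent arrays, grouped and numbered by their labels. The authors deposited each array's Feature Extraction 10.5.1.1 output, whose processed signal is a linear intensity after background correction, and 1 value per spot that is a ratio, the same intensity divided by 1 number per array close to its median. Control spots were dropped, as were 296 to 509 outlier spots on each array, and 0 were saturated. Repeated spots were averaged after scaling to the 75th percentile and log2. Limma 3.58.1 (R 4.3.3) was fitted to all 6 arrays without covariates and p-values were adjusted by Benjamini-Hochberg over 25160 probes. A probe needed to be above background on 3 arrays and to have 1 value in each group. The procedure was run on simulated data with independent noise and added differences larger than those of the tested member probes. That run does not show whether differences of the size seen here could be detected. An exact two-sided permutation test of 3 against 3 arrays cannot go below 0.1, and the number of arrays limits the precision. Genes were named from the files, and list genes also through the RefSeq table of GRCm38.p6, which named 26412 probes by accession, 3854 by gene name and 735 by synonym, while 8428 kept the files' name. By rule, every member, Arhgap5, pathway genes with an unadjusted p under 0.05 or with no overlap and a difference of at least 1, and the 3 probes most like the brightest member probe were named. Cir1, which fell just short of that size, was named after its values were seen. The members and lists were chosen with earlier results of these data known. The level of 1 gene of the B lymphocyte list is not reported here. The alternatives were quantile normalization, normexp (offset 50), no filter, detection on all 6 arrays, the authors' ratios, slide or replicate blocks, limma with intensity trend and robust variance, leave-one-out, the methods' t-test and the mean over a gene's probes, with slide 2 alone added after seeing the data.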

Additional observations from a re-analysis of the deposited data

How the results depend on the processing

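No member probe and no pathway gene was called by limma at an adjusted p under 0.05 under any alternative run, and 0 of all probes were. The methods' t-test without adjustment gave 1783 of all probes and 3 pathway genes at p of 0.05 or less on log2 values, and 968 and 2 on the linear signal. The count of member probes lower in 2T-p190-B-/-, 3 of 7, became 6 of 7 with normexp, with the slide as a block and within slide 2, and 6 of 12 without the filter. With 1 array left out it ran from 3 to 6, namely 6 on leaving out 2T-p190-B-/- replicate 3 and 5 on leaving out replicate 1 or 2 of 2T-WT. Member probes without overlap, 0 of 7, became 1 with normexp, 1 of 12 without the filter and 3 within slide 2 (2 arrays against 2), where 23.2%, 14.8% and 46.1% of all probes did not overlap, and ran from 0 to 2 with 1 array left out, where 22.9% to 32.3% of all did not. The reversed differences were those of Jag2, -1.11 with normexp and -0.68 with the slide as a block or within slide 2; of Notch4, -0.67 and -0.31; and of Numb, -0.30 and -0.87. With 1 array left out they ran from -0.46 to 1.23 for Jag2, -0.10 to 0.62 for Notch4 and -0.57 to 0.76 for Numb. The cause was not tested. Both Notch1 probes, the first Notch2 probe and Dll4 kept their direction under every alternative. The median of all tested probes moved to -0.10 with quantile normalization, -0.21 with the authors' ratios, -0.44 with detection on all 6 arrays, -0.47 with normexp or within slide 2, -0.48 with the slide as a block and -0.55 without the filter. Deviations of same-numbered arrays correlated weakly, at 0.0090, 0.016 and 0.086 for replicates 1, 2 and 3. Among the 2T-p190-B-/- arrays, the same-numbered one correlated best with 2T-WT replicates 1 and 3 but not with replicate 2. These values do not settle whether the numbers pair the samples. With the replicate block 0 member probes were called, 3 were lower and 0 did not overlap. The SE fell from 0.91 to 0.63 for Numb and from 0.87 to 0.63 for the second probe of Notch1, and stayed at 0.71 for Notch4. No probe was added to the members by accession.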

Other observations

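The member probe with the highest mean signal among those above background on all 6 arrays was the first probe of Notch1. Of 13747 probes of other genes above background on all 6 arrays, those with the highest Pearson r to it over the 6 arrays, which share the same scaling, were B230110C06Rik (r = 0.995), Rce1 (0.989), a CAAX protease, and Gm5608 (0.986). Rce1 read 2.11, 0.50 and 1.56 in the 2T-WT replicates against 0.67, 0.34 and 0.53 in the 2T-p190-B-/- replicates, with 2T-WT replicates 1 and 3 above the other 4 arrays as for the first probe of Notch1.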
